A study of Mus musculus with 12 samples.

Results

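The genes of steroid hormone production in the mouse testis described here are 10 of the 20788 genes in the expression table: Cyp21a1, Star, Cyp11a1, Cyp17a1, Hsd3b1, Hsd3b6, Hsd17b3, Srd5a1, Insl3 and Lhcgr. They were picked by gene symbol. Cyp21a1 was chosen by its rise in lncRNA8276-overexpressing testes against control_5NC testes in these same libraries, so its values in that comparison are a description and carry no test. The other 9 are known markers or enzymes of the Leydig cell. All 10 passed the filter on low counts.

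The libraries come from testes of F1 mice, with the strain given in the labels as "IRC mouse". In the overexpression group the testes received virus to overexpress lncRNA8276, a long non-coding RNA known only by this label, and in the knockdown group they received virus to inhibit it. The groups 5NC and 3NC, called control_5NC and control_3NC here, were taken as the controls, and the order of the design text sets overexpression against control_5NC and knockdown against control_3NC. Each of the 4 groups has 3 libraries of total RNA. The labels give no age, no virus type, no promoter and no statement that the libraries of a group are separate animals, so the p-values measure the spread between these libraries, which may be technical.

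Libraries held 13485479 to 15771655 counts. Of these, 3 stood apart in genes of other cell types. Control_3NC 2 was high in 9 interferon response genes (sum 449.9 CPM, normalised counts scaled to library size) and in 9 leukocyte markers (sum 414.7 CPM). Knockdown 1 and control_5NC 2 were high in 7 epididymis markers (sums of 383.4 and 266.3 CPM), and knockdown 1 was also high in 6 peritubular myoid markers (sum 237.4 CPM). LncRNA8276 itself was not analysed here, and the labels could not be checked against it.

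As background, Leydig cells lie between the seminiferous tubules and make androgen when luteinizing hormone binds its receptor, Lhcgr. Star moves cholesterol into the mitochondrion, Cyp11a1 cleaves its side chain to give pregnenolone, and 3-beta-hydroxysteroid dehydrogenases (Hsd3b1, Hsd3b6), Cyp17a1 and Hsd17b3 carry it on to testosterone, which 5-alpha-reductases such as Srd5a1 reduce. Insl3 is a peptide hormone of the Leydig cell. Cyp21a1, steroid 21-hydroxylase, belongs to the adrenal route to corticosterone and is known in the mouse testis from a small population of adrenal-like cells.

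Hsd3b1 and Hsd3b6 are neighbouring paralogs that behaved differently between libraries, so the 250 bases before their transcription starts are shown, from RefSeq on GRCm38.p6. The Hsd3b1 window is chr3:98859795-98860044 and the Hsd3b6 window is chr3:98814444-98814693, both on the minus strand and written 5′ to 3′ of the gene. Capitals mark matches to AGATAA, the motif of GATA factors, on either strand.
Hsd3b1: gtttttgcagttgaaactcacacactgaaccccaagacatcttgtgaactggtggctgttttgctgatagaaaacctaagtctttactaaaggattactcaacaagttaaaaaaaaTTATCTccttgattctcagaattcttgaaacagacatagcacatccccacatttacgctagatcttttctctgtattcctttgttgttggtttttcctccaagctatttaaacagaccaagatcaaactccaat
Hsd3b6: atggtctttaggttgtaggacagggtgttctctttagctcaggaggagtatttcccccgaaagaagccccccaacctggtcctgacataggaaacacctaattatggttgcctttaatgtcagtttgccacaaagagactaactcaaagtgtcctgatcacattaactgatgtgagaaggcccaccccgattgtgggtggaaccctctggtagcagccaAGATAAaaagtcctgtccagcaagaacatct
In the Hsd3b6 window AGATAA lies on the gene's strand at positions -31 to -26 before the start. In the Hsd3b1 window it lies on the other strand at positions -134 to -129. The motif occurs in 9.99% of 32851 promoter windows of the same length. Neither window holds the NR5A1 core CAAGGTC, the nuclear receptor half-site AGGTCA, the cyclic AMP half-site TGACG or the TATA box core TATAA on either strand. Over all windows TGACG occurs in 17.77% and the TATA box core in 22.78%. The table held windows for 7 of the 10 genes, and no entry for Cyp21a1, Star or Cyp17a1. Among the others, the NR5A1 core, bound by steroidogenic factor SF-1, was found before Insl3 at positions -137 to -131, and it occurs in 3.32% of all windows. The half-site, which can overlap that core, was found before Lhcgr and before 1 of the starts of Cyp11a1, and it occurs in 14.02% of all windows. These matches describe letters, not bound sites.

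Compared per transcript length (FPKM scale), the 10 genes spanned a wide range of levels in testis. Insl3 was the highest, with a median of 1381 FPKM over the 12 libraries and a range of 836 to 1629 FPKM. Cyp17a1 followed at a median of 416 FPKM, Cyp11a1 at 133 FPKM, Hsd3b1 at 75.4 FPKM, Hsd17b3 at 54.8 FPKM, Star at 37.5 FPKM and Hsd3b6 at 28.4 FPKM. Lhcgr had a median of 6.36 FPKM, Cyp21a1 4.08 FPKM and Srd5a1 2.74 FPKM, the lowest. The range of Insl3 did not overlap that of Cyp17a1, and the range of Hsd3b6 did not overlap that of Lhcgr. All other neighbours in this order overlapped over the 12 libraries. Insl3 lies wholly inside Jak3 on the same strand, and its counts are fractional, so reads may be shared between these genes. Jak3 had group means of only 7.99 to 10.9 CPM, against 553 to 701 CPM for Insl3.

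**Figure D1:**
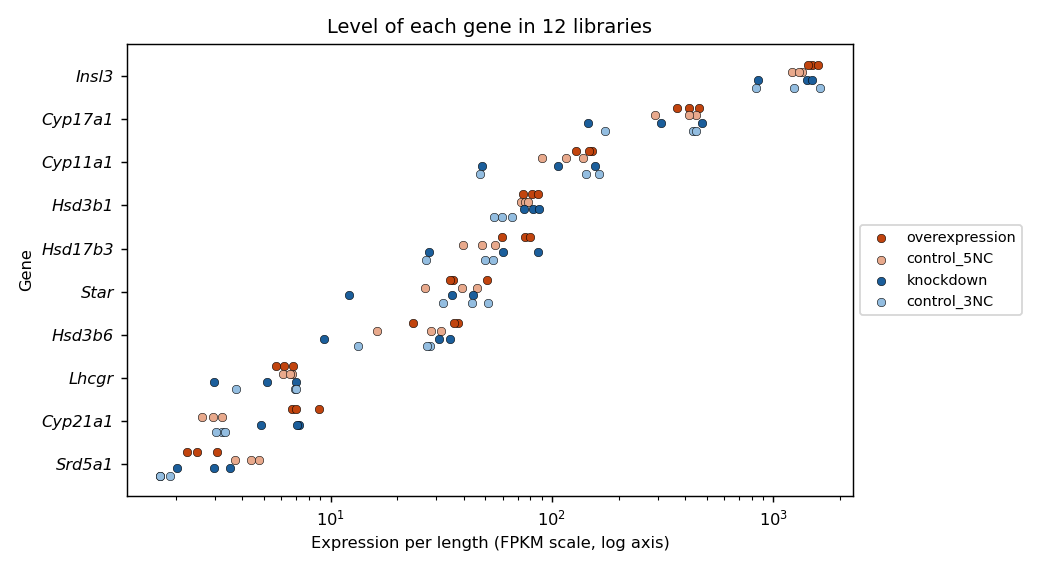
Expression per length (FPKM scale, log axis) of the 10 genes in 12 libraries, 1 point per library, coloured by group. Insl3 lies between 836 and 1629 FPKM, above every other gene, and Lhcgr, Cyp21a1 and Srd5a1 lie below 9 FPKM in all libraries.

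Cyp21a1 was 2.66-fold higher in overexpression testes than in control_5NC testes and 1.99-fold higher in knockdown testes than in control_3NC testes. It had 16.3, 11.9 and 12.9 CPM in overexpression libraries, against 5.22, 5.65 and 4.60 CPM in control_5NC libraries. It had 12.9, 8.69 and 12.5 CPM in knockdown libraries, against 5.84, 5.64 and 5.68 CPM in control_3NC libraries. All 6 modified libraries lay above all 6 controls, as they did for 0.329% of all tested genes, and the lowest modified library was knockdown 2. This is a description, since these libraries include those that chose the gene. The raw counts behind these levels were 134 to 248 in modified libraries and 64 to 90 in controls.

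In overexpression against control_5NC, the comparison that chose the gene, Cyp21a1 averaged 13.7 ± 2.30 CPM in overexpression testes and 5.16 ± 0.525 CPM in control_5NC testes (SD, n = 3 each). The log2 fold change was 1.41 ± 0.18 (SE), a 2.66-fold difference. It is 1 of 10 genes of the set called there, where 0.476% of all 16395 tested genes were called, and nothing is read from that count. The call is lost without overexpression 1 or without control_5NC 3, which is likewise a description with no test. The log2 fold changes in all 15 alternatives stayed between 1.26 and 1.501.

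Knockdown against control_3NC has no library in common with that comparison, although the gene was taken up with earlier results of all 12 libraries known and the fit shares its estimate of spread over them. Cyp21a1 averaged 11.4 ± 2.33 CPM in knockdown testes and 5.72 ± 0.106 CPM in control_3NC testes (SD, n = 3 each). The log2 fold change was 0.99 ± 0.18 (SE), a 1.99-fold difference. It did not pass edgeR's quasi-likelihood test over all genes (Benjamini-Hochberg adjusted p = 0.298). DESeq2 called it, with an adjusted p of 0.00505, and limma-voom did not, with 0.413. With the compared groups only, edgeR gave 0.725. The log2 fold change was 0.89 to 1.15 over 15 alternatives, with adjusted p from 0.00505 to 0.968. Without the 3 libraries high in genes of other cell types it was 0.885.

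Overexpression and knockdown were set directly against each other as well. Cyp21a1 differed by 0.27 ± 0.17 log2 between overexpression and knockdown testes. The overexpression effect minus the knockdown effect was 0.42 ± 0.25 log2. Both use the overexpression values for which the gene was chosen and are given with no test. Between the controls, control_5NC minus control_3NC was -0.15 ± 0.18 log2, likewise a description. Pooled, both modified groups exceeded both control groups by 1.20 ± 0.13 log2, a 2.30-fold difference given as a description because it contains the comparison that chose the gene.

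**Figure D2:**
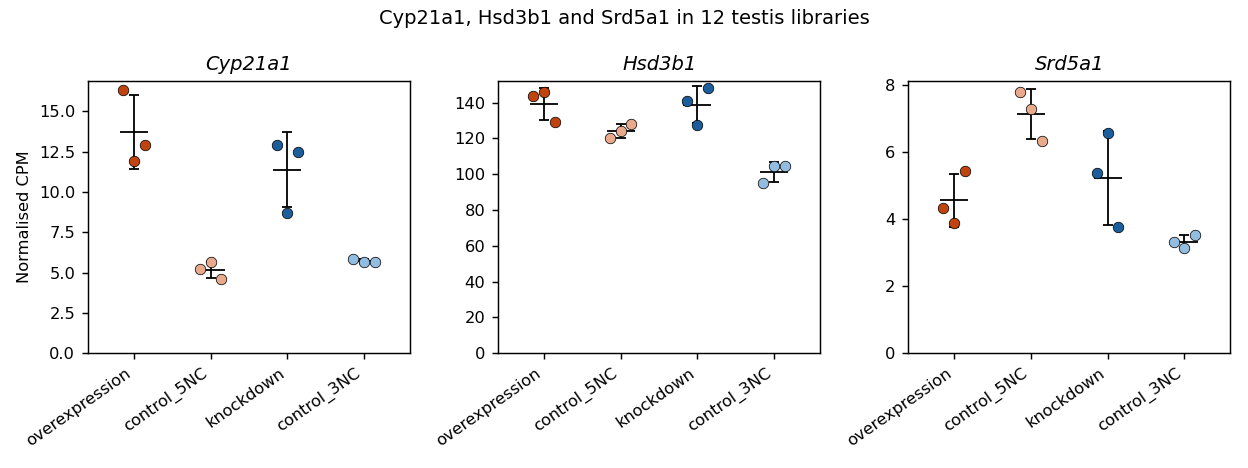
Normalised CPM of Cyp21a1, Hsd3b1 and Srd5a1 in 12 libraries, 1 point per library, with the mean and SD of each group of 3 as bars. Cyp21a1 lies at 8.69 to 16.3 CPM in modified libraries and 4.60 to 5.84 CPM in controls, Hsd3b1 is lowest in control_3NC, and Srd5a1 is highest in control_5NC.

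Of 12 adrenal markers, the steroid enzymes Cyp11b1 and Cyp11b2, the receptor Mc2r and the catecholamine genes Th, Dbh and Pnmt were at or near 0 in all libraries. Cyp11b1, the 11-beta-hydroxylase that acts after Cyp21a1 in the adrenal cortex, had 0 to 5 counts per library and 21 in all. Cyp11b2, aldosterone synthase, had 8 counts in all, and Mc2r, the corticotropin receptor, had 12. Mrap, an accessory protein of that receptor, was at 3.11 to 8.33 CPM. Susd3 (23.5 to 37.9 CPM), Chga (7.70 to 13.5 CPM) and Chgb (6.99 to 11.5 CPM) were detected in every library, and Npy reached 9.39 CPM. The medulla genes Th, Dbh and Pnmt reached at most 0.259, 0.199 and 0.565 CPM. Summed over 12 adrenal markers, levels ranged from 58.1 to 67.1 CPM in overexpression, 56.0 to 144.4 CPM in knockdown, 55.0 to 66.2 CPM in control_5NC and 43.7 to 68.0 CPM in control_3NC libraries. The high value was knockdown 1, where Akr1b7, an aldo-keto reductase of the adrenal cortex and of the vas deferens, was at 93.2 CPM, against at most 2.92 CPM elsewhere. Of 6 adrenal markers that could be tested, edgeR called 0 in each of the 6 comparisons. It called 0% to 0.476% of all tested genes there, so nothing is read from 0 of 6. At an unadjusted p below 0.05 there was 1 in overexpression against control_5NC (15.3% of all genes) and 1 in knockdown against control_3NC (8.69%). There were 2 in overexpression against knockdown (2.09%) and 1 in the pooled comparison (2921 of 16395 genes). DESeq2 called 1, Akr1b7, in knockdown against control_3NC, where it called 0.141% of all genes.

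Cyp21a1 lies at chr17:34801348-34804561 on the minus strand (GRCm38, GENCODE M21), with 10 exons. Its gene body overlaps that of the pseudogene Tnxa on the opposite strand by 276 bp. The pseudogene Cyp21a2-ps has a transcript 97.4% identical to Cyp21a1 over 1182 aligned bp. Neither pseudogene has a row in the table, and no source used here gives the counting rule, so reads from these copies may be part of the Cyp21a1 value. The 4 protein-coding genes within 50 kb that are in the table, Stk19, Dxo, Skiv2l and Nelfe, did not pass in overexpression against control_5NC (edgeR adjusted p 0.5 to 0.967) or in knockdown against control_3NC (0.586 to 0.944). Nelfe, a subunit of the negative elongation factor, had the largest of these differences, 0.22 ± 0.14 log2 in both comparisons. Skiv2l, an RNA helicase, averaged 133 ± 15.6 CPM in overexpression and 131 ± 12.2 CPM in control_5NC testes (SD, n = 3 each). C4a, 4531 bp from Cyp21a1 and annotated as a processed transcript, was also measured but is not described here.

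The 2 isoenzymes of the 3-beta-hydroxysteroid dehydrogenase step, Hsd3b1 and Hsd3b6, did not follow each other. Hsd3b1 had 143, 146 and 129 CPM in overexpression libraries, against 120, 124 and 128 CPM in control_5NC libraries. It had 141, 128 and 148 CPM in knockdown libraries, against 94.9, 105 and 104 CPM in control_3NC libraries. Neither pair of groups overlapped, though in the first pair the gap was small, and control_5NC lay above control_3NC.

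Hsd3b1 averaged 138.9 ± 10.4 CPM in knockdown testes and 101.3 ± 5.52 CPM in control_3NC testes (SD, n = 3 each), a log2 fold change of 0.46 ± 0.08 (SE). This missed edgeR's threshold (adjusted p = 0.299) and passed DESeq2's (adjusted p = 0.000189), and limma-voom did not call it (adjusted p = 0.404). DESeq2 was the 1 of 15 alternatives to pass, with adjusted p from 0.000189 to 0.968. In overexpression against control_5NC the difference was 0.17 ± 0.08 log2 (edgeR adjusted p = 0.367). The overexpression effect minus the knockdown effect was -0.29 ± 0.12 log2 (edgeR adjusted p = 0.707). Between the controls, control_5NC exceeded control_3NC by 0.29 ± 0.08 log2, with an edgeR adjusted p of 0.199 and a DESeq2 adjusted p of 0.0399. There too DESeq2 was the 1 of 15 alternatives to pass, with adjusted p from 0.0399 to 0.786.

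Hsd3b6, the isoenzyme known from adult mouse Leydig cells, had 40.3, 62.3 and 62.3 CPM in overexpression libraries, against 52.0, 26.3 and 46.7 CPM in control_5NC libraries. It had 15.7, 58.0 and 51.1 CPM in knockdown libraries, against 47.6, 43.0 and 23.1 CPM in control_3NC libraries. These groups overlapped widely, and single libraries were low within 3 of them. The ratio of Hsd3b1 to Hsd3b6 in FPKM was 1.94 to 3.46 in 9 libraries. It was 8.74 in knockdown 1, 4.66 in control_5NC 2 and 4.50 in control_3NC 3. The isoenzymes' transcripts are 88.003% identical over 1342 aligned bp, and both genes had whole-number counts in all 12 libraries.

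Srd5a1 differed in opposite directions in the 2 comparisons, and neither difference passed the test. It had 4.34, 3.89 and 5.44 CPM in overexpression libraries, against 7.79, 7.27 and 6.33 CPM in control_5NC libraries. It had 5.36, 6.55 and 3.76 CPM in knockdown libraries, against 3.32, 3.13 and 3.52 CPM in control_3NC libraries. The groups did not overlap in either comparison, and the means of both modified groups lay between those of the 2 control groups.

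The log2 fold change of Srd5a1 was -0.65 ± 0.21 in overexpression against control_5NC (SE, edgeR adjusted p = 0.162) and 0.65 ± 0.21 in knockdown against control_3NC (edgeR adjusted p = 0.559). The difference of the effects was -1.30 ± 0.30 log2 and did not pass either (edgeR adjusted p = 0.341). Control_5NC testes averaged 7.13 ± 0.742 CPM and control_3NC testes 3.32 ± 0.193 CPM (SD, n = 3 each). That gap, 1.10 ± 0.21 log2, was wider than either modified-against-control difference and missed the threshold (edgeR adjusted p = 0.0593). DESeq2 gave 0.00378. Of 15 alternatives for this gap 2 passed, DESeq2 included, with adjusted p from 0.00378 to 0.252. Counts were 50 to 124 per library. The Srd5a1 gene body lies wholly within that of Nsun2, an RNA methyltransferase gene on the opposite strand. No strand setting was stated, so reads may be shared where their exons overlap, which was not examined. Both genes had whole-number counts. Nsun2 averaged 193.9 ± 3.67 CPM in overexpression and 235.5 ± 17.3 CPM in control_5NC testes, and 187.5 ± 11.4 CPM in knockdown and 194.4 ± 12.3 CPM in control_3NC testes (SD, n = 3 each).

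**Figure D3:**
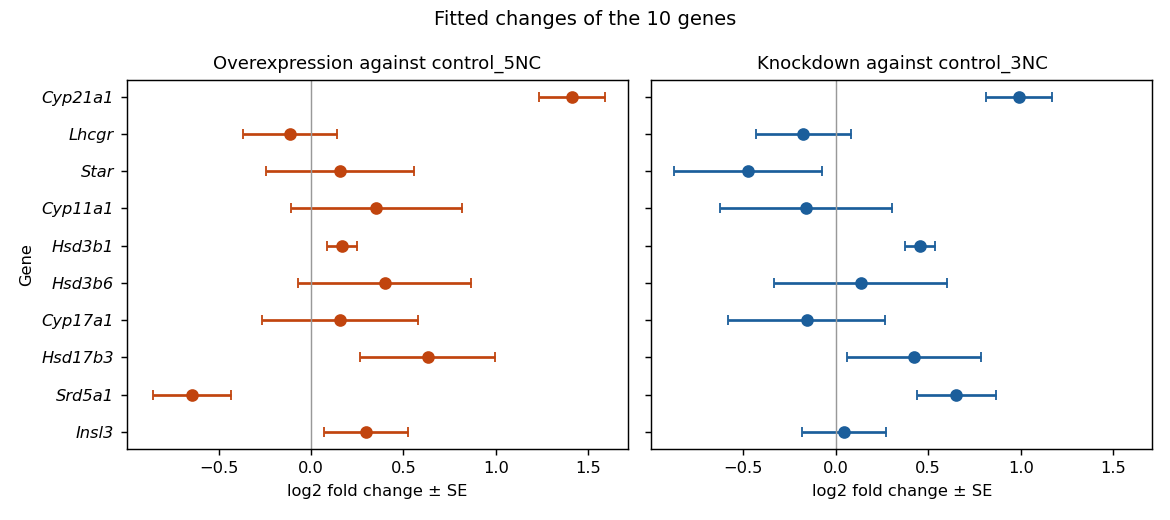
Log2 fold changes with SE of the 10 genes from the edgeR fit, overexpression against control_5NC on the left and knockdown against control_3NC on the right. Cyp21a1 lies farthest to the right in both panels, Srd5a1 changes side between them, and Hsd3b1 has the shortest error bars.

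The remaining 7 genes, Lhcgr, Star, Cyp11a1, Cyp17a1, Hsd3b6, Hsd17b3 and Insl3, varied together from library to library, and none passed the test between groups in any of the 6 comparisons. Knockdown 1 was the lowest of 12 libraries for all 7 genes. Control_3NC 3 was the second lowest for 6 of the 7, and control_5NC 2 was among the lowest 3 for 5 of them. In knockdown 1 these genes lay 0.59 to 1.55 log2 below their own means over 12 libraries, with a median of -1.19. In control_3NC 3 the median was -0.82, and in control_5NC 2 it was -0.34. Over the other 9 libraries the 7-gene median lay between 0.00 and 0.42. Hsd3b1 and Srd5a1 were set apart from the 7 by their values in these libraries, so the agreement of the 7 is a description. In knockdown 1 Hsd3b1 lay 0.17 and Srd5a1 0.15 log2 above their own means. In control_3NC 3 they were at -0.26 and -0.44, and in control_5NC 2 at -0.01 and 0.58. In bulk tissue, fewer Leydig cells and less RNA per Leydig cell cannot be told apart. The sum of 17 other Leydig cell markers was 667 CPM in knockdown 1 and 636 CPM in control_3NC 3, against 1162 to 1773 CPM in the other 10 libraries. Knockdown 1 and control_5NC 2 are also the libraries highest in epididymis markers, and control_3NC 3 had 33.9 CPM of them. The part of other tissue in these levels was not tested.

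**Figure D4:**
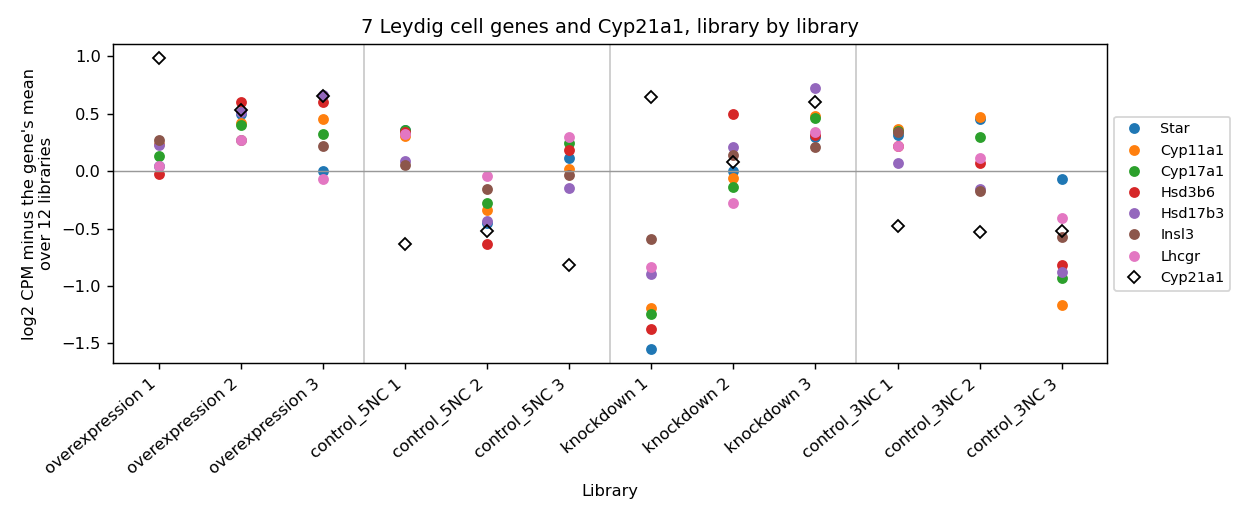
Log2 CPM of 7 Leydig cell genes (filled circles) and Cyp21a1 (open diamonds) in each of 12 libraries, relative to each gene's mean over the libraries. All 7 genes are lowest in knockdown 1, with a median of -1.19, and Cyp21a1 is above its mean there, as in the other modified libraries.

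The receptor and the first steps of the pathway show this pattern. Lhcgr had 14.2, 16.6 and 13.1 CPM in overexpression libraries, against 17.3, 13.3 and 16.9 CPM in control_5NC libraries, and 7.66, 11.3 and 17.5 CPM in knockdown libraries, against 15.99, 14.9 and 10.4 CPM in control_3NC libraries. Star had 142, 195 and 138 CPM in overexpression libraries, against 176, 101 and 149 CPM in control_5NC libraries, and 47.1, 138 and 169 CPM in knockdown libraries, against 172, 189 and 131 CPM in control_3NC libraries. Cyp11a1 had 215, 245 and 250.4 CPM in overexpression libraries, against 226, 144 and 186 CPM in control_5NC libraries, and 80.1, 175 and 256 CPM in knockdown libraries, against 237, 254 and 81.5 CPM in control_3NC libraries. For each of the 3 genes the groups overlapped in both comparisons, and the spread inside the knockdown group was wider than the gap between groups. The fitted difference in knockdown against control_3NC was -0.18 ± 0.26 log2 for Lhcgr (edgeR adjusted p = 0.801), -0.47 ± 0.40 for Star (0.672) and -0.16 ± 0.46 for Cyp11a1 (0.909). Without knockdown 1 the difference was 0.068 for Lhcgr and 0.177 for Cyp11a1, and without control_3NC 1 or 2 it was 0.024 and 0.099 for Cyp11a1.

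The later enzymes and Insl3 varied in the same way. Cyp17a1 had 645, 779 and 737 CPM in overexpression libraries, against 756, 486 and 697 CPM in control_5NC libraries, and 249, 533 and 813 CPM in knockdown libraries, against 749, 722 and 309 CPM in control_3NC libraries. Hsd17b3, the enzyme of the last step to testosterone, had 69.9, 85.5 and 94.3 CPM in overexpression libraries, against 63.2, 44.1 and 53.9 CPM in control_5NC libraries, and 32.0, 69.0 and 98.3 CPM in knockdown libraries, against 62.6, 53.7 and 32.3 CPM in control_3NC libraries. Insl3 had 709.4, 709.8 and 683.7 CPM in overexpression libraries, against 611, 528 and 572 CPM in control_5NC libraries, and 391, 645 and 677 CPM in knockdown libraries, against 743.5, 522 and 395 CPM in control_3NC libraries. Overexpression libraries lay above control_5NC libraries without overlap for Hsd17b3 and Insl3. Those of Cyp17a1 overlapped, and knockdown and control_3NC libraries overlapped for all 3 genes. The fitted difference in overexpression against control_5NC was 0.63 ± 0.36 log2 for Hsd17b3 (edgeR adjusted p = 0.468), 0.30 ± 0.23 for Insl3 (0.603) and 0.16 ± 0.42 for Cyp17a1 (0.914). In knockdown against control_3NC it was 0.42 ± 0.36 for Hsd17b3 (0.676), 0.045 ± 0.23 for Insl3 (0.95) and -0.16 ± 0.42 for Cyp17a1 (0.903). Leaving out knockdown 1, control_3NC 1 or control_3NC 2 made the last positive, at 0.183, 0.047 and 0.007, and leaving out knockdown 2, knockdown 3 or control_3NC 3 made that of Insl3 negative, at -0.051, -0.094 and -0.147.

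Relations to Cyp17a1 were computed for 8 genes on log2 CPM over the 12 libraries, which share the scaling of their library. Pearson's r was 0.98 for Cyp11a1 (Spearman's rho 0.87; permutation p = 4e-05 and 0.00056, adjusted over the 8 relations 0.00032 and 0.00336). It was 0.93 for Lhcgr (rho 0.85; permutation p = 0.00016 and 0.00084, adjusted 0.00064 and 0.00336) and 0.84 for Star (rho 0.81; permutation p = 0.00468 and 0.00206, adjusted 0.00624 and 0.00549). Hsd3b6 (r 0.90, rho 0.73), Insl3 (r 0.87, rho 0.67) and Hsd17b3 (r 0.85, rho 0.76) had adjusted permutation p of 0.0024, 0.00541 and 0.0024 for r and 0.0153, 0.0274 and 0.0142 for rho. Without the 2 libraries farthest from the median of Cyp17a1, knockdown 1 and control_3NC 3, r stayed at 0.91 for Cyp11a1, 0.84 for Star and 0.76 for Lhcgr (permutation p = 0.00212, 0.0035 and 0.0213). It was then 0.60 for Hsd3b6, 0.58 for Hsd17b3 and 0.43 for Insl3 (permutation p = 0.127, 0.077 and 0.222). The 2 libraries were picked as the farthest in Cyp17a1, and leaving them out narrows its range. The lower r therefore does not show whether these 3 relations rest on them. Hsd3b1 had r = 0.04 and rho = 0.25 (permutation p = 0.879 and 0.433, adjusted 0.879 and 0.494), and Srd5a1 had r = -0.10 and rho = -0.18 (permutation p = 0.757 and 0.596, adjusted 0.865 and 0.596).

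The libraries fall into 2 sizes, 3 of at most 13847277 counts and 9 of at least 15252025. Within the 9 larger ones r with Cyp17a1 was 0.99 for Cyp11a1, 0.94 for Lhcgr, 0.83 for Star, 0.91 for Hsd3b6, 0.87 for Hsd17b3 and 0.87 for Insl3. The 3 smaller libraries are too few for a value. Cyp21a1 separates modified from control libraries, so its relation to Cyp17a1 is given within each kind: r = 0.06 and rho = -0.09 in 6 modified libraries, and r = -0.31 and rho = -0.20 in 6 controls, as a description with no test.

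**Figure D5:**
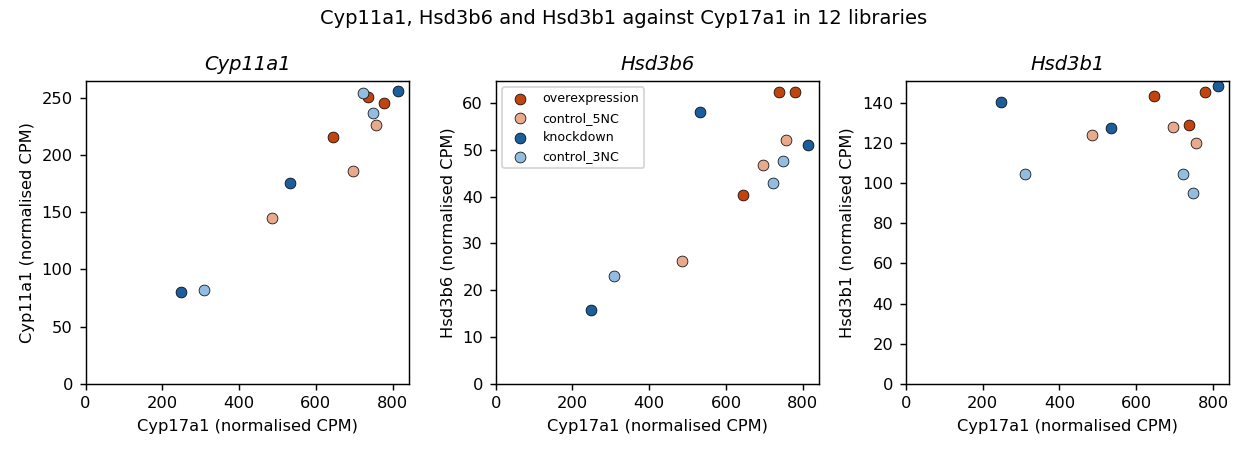
Normalised CPM of Cyp11a1, Hsd3b6 and Hsd3b1 against that of Cyp17a1, 1 point per library, coloured by group. Cyp11a1 and Hsd3b6 are low with Cyp17a1 in knockdown 1 and control_3NC 3, while Hsd3b1 is at 141 CPM in knockdown 1 and 104 CPM in control_3NC 3.

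Over the set of 10 genes, knockdown against control_3NC called 0 by edgeR's test, with 0.0183% of all tested genes called. At an unadjusted p below 0.05 there were 3 (Cyp21a1, Hsd3b1 and Srd5a1), where 8.69% of all genes were. DESeq2 called 2 (Cyp21a1 and Hsd3b1, where it called 0.141% of all genes) and limma-voom 0. The same 3 genes had knockdown libraries all above control_3NC libraries, 3 of 10 against 6.48% of all tested genes, and 0 of 10 lay wholly below, against 6.57%. In overexpression against control_5NC, 4 of 10 lay wholly above (Cyp21a1, Hsd3b1, Hsd17b3 and Insl3), where 11.7% of all genes did, and 1 wholly below (Srd5a1), where 10.3% did. Nothing is read from the last 2 counts, as that comparison chose Cyp21a1. The counts in knockdown against control_3NC are a description too, as the 10 genes were chosen with earlier results of these data known.

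Both modified groups against both controls called 1 of the 10 genes, Cyp21a1, with 0.262% of all genes called, and nothing is read from this, as it contains the comparison that chose Cyp21a1. Control_5NC against control_3NC called 0 of the 10, with 0.244% of all genes called. There, 2 of the 10 had an unadjusted p below 0.05, as did 12.9% of all genes, and DESeq2 called 2 of the 10 and 1.87% of all genes (Hsd3b1 and Srd5a1 in each case). Overexpression against knockdown called 0 of the 10, with 0% of all genes called by edgeR, 0 of the 10 at an unadjusted p below 0.05 (2.09% of all genes) and 0 of the 10 by DESeq2 (0.0738% of all genes). The difference of the effects called 0 of the 10, with 0.0183% of all genes called, 2 at an unadjusted p below 0.05 (Hsd3b1 and Srd5a1; 6.73% of all genes) and 0 by DESeq2 (0.326% of all genes). The median log2 fold change of the 10 genes was 0.23 in overexpression against control_5NC, where that of all tested genes was -0.01, and 0.09 in knockdown against control_3NC, where that of all tested genes was -0.025.

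The rest of the pathway was read from 6 lists of 95 genes, 81 of them tested: other steroid enzymes, electron donors of the steroid cytochromes, cholesterol delivery, regulators of steroid genes, luteinizing hormone signalling and other Leydig cell markers. EdgeR called 0 of the 81 in each of the 6 comparisons, where it called 0% to 0.476% of all tested genes. With shares so small, nothing is read from these counts. In overexpression against control_5NC 8 of the 81 had an unadjusted p below 0.05, where 15.3% of all tested genes did, and DESeq2 called 2, Ptgds and Pdgfa, where it called 5.79% of the genes to which it gave an adjusted p. Both counts are below the share over all genes. In knockdown against control_3NC 7 of the 81 had an unadjusted p below 0.05, close to the 8.69% of all tested genes. DESeq2 and limma-voom called 0 of the 81 there, where DESeq2 called 0.141% of all genes and limma-voom called 3 genes. Among the lists of cell type markers, the only gene to pass edgeR's test in a comparison was Spo11, the nuclease that makes meiotic double-strand breaks, a germ cell gene. It averaged 33.0 ± 2.62 CPM in overexpression and 62.0 ± 4.61 CPM in control_5NC testes (SD, n = 3 each), a log2 fold change of -0.91 ± 0.10 (edgeR adjusted p = 0.00327).

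Ptgds, a prostaglandin D synthase of Leydig cells, had 111, 107 and 124 CPM in overexpression libraries, against 36.5, 57.6 and 48.6 CPM in control_5NC libraries. Its log2 fold change was 1.26 ± 0.32 (edgeR adjusted p = 0.11, DESeq2 adjusted p = 0.00165), and the groups did not overlap. In knockdown against control_3NC it was 0.03 ± 0.32 (edgeR adjusted p = 0.978). Pdgfa, a growth factor ligand needed for Leydig cell development in mice, averaged 10.3 ± 1.57 CPM in overexpression and 16.8 ± 2.59 CPM in control_5NC testes (SD, n = 3 each). Its log2 fold change there was -0.70 ± 0.15 (edgeR adjusted p = 0.0685, DESeq2 adjusted p = 0.0043), and in knockdown against control_3NC it was -0.26 ± 0.15 (edgeR adjusted p = 0.57).

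Of 15 other steroid enzymes tested, Akr1c21, a hydroxysteroid dehydrogenase, had the smallest adjusted p in overexpression against control_5NC (edgeR, 0.135). It had 0.460, 1.40 and 0.398 CPM in overexpression libraries, against 0.0628, 0.0706 and 0 CPM in control_5NC libraries, and 0.0639, 0.324 and 0.324 CPM in knockdown libraries, against 1.26, 0.751 and 0.0676 CPM in control_3NC libraries. These levels are low, and highest in overexpression 2 and control_3NC 1. Cyp19a1, the aromatase, averaged 7.06 ± 1.24 CPM in overexpression and 4.84 ± 0.554 CPM in control_5NC testes (SD, n = 3 each; edgeR adjusted p = 0.311). Median log2 fold changes of this list were 0.09 in overexpression against control_5NC and -0.23 in knockdown against control_3NC. Of 15 regulators tested, Nr0b1, a repressor of steroid genes, averaged 15.8 ± 2.31 CPM in overexpression and 13.5 ± 0.635 CPM in control_5NC testes (SD, n = 3 each; edgeR adjusted p = 0.412). Zfpm2, a GATA cofactor, averaged 14.02 ± 0.206 CPM in overexpression and 16.5 ± 0.527 CPM in control_5NC testes, and 12.7 ± 0.872 CPM in knockdown and 15.1 ± 0.467 CPM in control_3NC testes (SD, n = 3 each; edgeR adjusted p = 0.276 and 0.559). The groups of Zfpm2 did not overlap in either comparison. Among 8 electron donors, Fdxr, the reductase that feeds Cyp11a1, averaged 31.0 ± 1.13 CPM in overexpression and 34.4 ± 4.29 CPM in control_5NC testes (SD, n = 3 each; edgeR adjusted p = 0.782). Among 10 cholesterol delivery genes, Tspo averaged 5.66 ± 1.13 CPM in knockdown and 12.2 ± 11.96 CPM in control_3NC testes (SD, n = 3 each; edgeR adjusted p = 0.562). The control_3NC mean of Tspo rests on control_3NC 2, at 26.0 CPM, the library high in leukocyte markers, and the part of those cells in the result was not tested.

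Genes whose level most resembled Cyp21a1 were ranked by Pearson's r on log2 CPM over the 12 libraries, among 15362 genes with a mean of at least 1 CPM. The ranking draws on the comparison that chose Cyp21a1 and is a description. The highest were Alb (r 0.93), 2010109A12Rik (0.89), Ndufa5 (0.88), Gm46310 (0.88) and Gprc5b (0.875), of which the last 2 had fractional counts. Alb, serum albumin, averaged 4.15 CPM in overexpression and 0.0924 CPM in control_5NC testes, and 3.57 CPM in knockdown and 0.0639 CPM in control_3NC testes. 2010109A12Rik averaged 2.83 CPM in overexpression and 0.16 CPM in control_5NC testes, and 2.55 CPM in knockdown and 0.109 CPM in control_3NC testes. Both genes reached the required mean of 1 CPM only through the modified groups and were near 0 in controls. Ndufa5, a subunit of respiratory complex I, averaged 72.8 CPM in overexpression and 56.1 CPM in control_5NC testes, and 69.5 CPM in knockdown and 54.8 CPM in control_3NC testes. The lowest were Pkd2l2 (r -0.94), LOC108167874 (-0.92) and Tagap (-0.92), all with fractional counts. Within the set, Hsd3b1 had r 0.73 over the 12 libraries, but 0.54 (rho 0.09) within the 6 modified and -0.73 (rho -0.83) within the 6 control libraries. The other 8 genes lay between -0.24 and 0.42 over the 12 libraries.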

How the data were processed

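RNA sequencing of 12 testis libraries was analysed from the deposited table of estimated counts per gene, in which 88.2% of values are whole, per the file headers and the values. A second set of deposited columns was taken as FPKM, counts the authors had scaled by library and gene length. The header does not name this unit, and it was inferred from the values. The implied gene length varied by a median of 0.575% between libraries over 3004 genes with more than 1000 counts in every library. Genes with fewer counts, such as Cyp21a1, Lhcgr and Srd5a1, were not part of that check. Per the submitters' processing notes, mm10 was the genome. No aligner, counter, annotation, strand setting or filter was given in the sources used here. The table's 18 per-sample columns of other samples were not used.

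Counts were rounded and fitted in edgeR 4.0.16 (R 4.3.3): filterByExpr with a minimum count of 10 (16395 of 20788 genes kept), TMM scaling, 1 quasi-likelihood model of group means over all 12 libraries, and Benjamini-Hochberg adjustment over all tested genes with a threshold of 0.05. The common dispersion was 0.0388, a coefficient of variation of 19.7%. CPM are normalised by TMM, and correlations use log2 CPM with a prior count of 2 and 100000 permutations, two-sided (scipy 1.17.1). DESeq2 1.42.0, limma-voom (limma 3.58.1), other scalings, no low-count filter, a term for the 3 smaller libraries, a replicate block, fits on the compared groups alone and leaving out each library were alternatives, and leaving out the 3 libraries high in genes of other cell types was added after seeing the data. The fit was run on counts simulated from its own dispersions, with known changes put in, and no result is drawn from that run here. Positions come from GENCODE M21 on GRCm38.

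The 10 genes and the other lists were chosen with earlier results of these data known. Besides the 10 genes, each list gave the genes that passed a comparison and the 2 with the smallest p in each main comparison. Of these, some are described. Also named were the tested protein-coding neighbours of Cyp21a1 within 50 kb, and the 5 genes most and 3 least like it.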

Additional observations from a re-analysis of the deposited data

How the results depend on the processing

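Cyp21a1 kept its direction in every alternative run for overexpression against control_5NC, knockdown against control_3NC and the pooled comparison. All of its modified libraries lay above all of its controls, so leaving libraries out could not turn this direction. It is a description, and no support is drawn from it. Genes called in overexpression against control_5NC numbered 78, and 163 with scaling by total counts, 742 with DESeq2, 269 with the replicate block, 34 without the 3 libraries high in other cell types and 5 to 217 with 1 library left out, which called 0 to 1 of the 10 genes. Knockdown against control_3NC called 3 genes, and 23 with DESeq2 (2 of the 10), 0 with the compared groups only, 0 without the 3 libraries and 1 to 9 with 1 library left out. The pooled comparison called 43, and 68 with total counts, 675 with DESeq2, 386 with the replicate block, 8 without the 3 libraries and 6 to 300 with 1 library left out. It called 2 of the 10 with DESeq2, with the replicate block and with a term for smaller libraries, and 1 to 2 with 1 library left out. The second gene was Hsd3b1, whose log2 fold change there was 0.31. Control_5NC against control_3NC called 40, and 68 with total counts (1 of the 10), 305 with DESeq2 (2 of the 10), 13 with limma-voom, 6 with the term for smaller libraries, 9 with the compared groups only, 12 without the 3 libraries and 7 to 126 with 1 library left out. Overexpression against knockdown called 0, 12 with DESeq2 and 0 to 2 with 1 library left out. The difference of the effects called 3, and 53 with DESeq2, 6 with the replicate block, 7 without the 3 libraries and 3 to 12 with 1 library left out. The cause was not tested. The replicate numbers were not taken as pairs in the main fit. In the overexpression comparison, deviations of same-numbered libraries had r of 0.21, 0.31 and -0.12, against -0.41 to 0.27 for different numbers. In the knockdown comparison same-numbered libraries had r of 0.04, -0.04 and -0.09, against -0.059 to 0.099 for different numbers. These values do not settle whether the numbers mark pairs.

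Directions that turned were all of differences that did not pass. With 1 library left out, the log2 fold change in overexpression against control_5NC was -0.043 to 0.339 for Star and -0.015 to 0.281 for Cyp17a1. In knockdown against control_3NC it was -0.576 to 0.177 for Cyp11a1, -0.6 to 0.183 for Cyp17a1, -0.532 to 0.068 for Lhcgr, -0.182 to 0.525 for Hsd3b6, -0.147 to 0.319 for Insl3 and -1.503 to 0.088 for Tspo. With limma-voom Hsd3b6 was -0.013 there. Without the 3 libraries high in other cell types, Star was -0.034 and Cyp17a1 -0.006 in overexpression against control_5NC. In knockdown against control_3NC without these libraries Star was 0.027, Cyp11a1 0.444, Cyp17a1 0.353, Lhcgr 0.136, Pgrmc1 0.072, Soat1 0.005 and Tspo 0.232.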
